A study of Mus musculus with 24 samples.

Results

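The 9 genes described here, S100a8, S100a9, Ngp, Ltf, Camp, Mmp8, Mmp9, Retnlg and Csf3r, encode granule proteins, cytosolic proteins and a surface receptor of neutrophils. They are 9 of the 55536 genes in the expression table, where each was found once. They and the lists of other genes below were chosen by name, but with earlier results of these data known. The labels name total RNA from liver of Balb/c mice aged 6 weeks and list the genotype as wild type. The table holds 24 liver libraries in 3 groups of 8: healthy controls (Con), mice with acute pancreatitis (AP) and mice with severe acute pancreatitis (SAP). No label states the agent that induced pancreatitis or the time between induction and sampling. Values were taken as TPM, a gene's share of all transcripts in a library after correction for transcript length, a unit read from the values because no header names it. Libraries are named by group and title number, and nothing in the labels says that the 8 repeats of a group are separate mice. The p-values therefore cover the spread among libraries, which may be technical.

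Neutrophils store antimicrobial and matrix-degrading proteins in granules that are filled in sequence while the cells mature in the bone marrow. Primary (azurophil) granules hold myeloperoxidase and serine proteases, secondary (specific) granules hold lactoferrin, cathelicidin, neutrophilic granule protein and collagenase, and tertiary granules hold gelatinase. Most granule protein mRNA is made in precursor cells and declines before the mature cell enters the blood, whereas S100a8 and S100a9, the calprotectin subunits that bind calcium and zinc, stay abundant as mRNA and protein in circulating neutrophils. The liver sinusoids hold few neutrophils at rest and recruit them in systemic inflammation. In bulk tissue, more cells of a type and more RNA per cell cannot be told apart.

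In the mouse GRCm38 annotation (GENCODE M21), S100a8 lies at chr3:90668978-90670035 on the plus strand and S100a9 at chr3:90692632-90695721 on the minus strand, close together in one gene cluster. On chromosome 9 lie Camp (109847379 to 109849617, minus strand), Ngp (110419747 to 110423012, plus), Ltf (111019271 to 111042767, plus) and, far from them, Mmp8 (7558456 to 7568485, plus). Mmp9 lies on chromosome 2 (164940780 to 164955850, plus), Retnlg on chromosome 16 (48872621 to 48874496, plus) and Csf3r on chromosome 4 (126024550 to 126044440, plus). All 9 are protein-coding and 0 of them overlap another annotated gene. Of the 9, Csf3r shared 10.7% of its 50-base windows with transcripts of other genes and the others shared 0. The build behind the table itself is not stated in the labels.

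Promoter windows of 250 bases, ending just before the RefSeq start of transcription (GRCm38.p6), were held for 8 of the 9 genes, all but Mmp9. Those of the calprotectin genes and Ngp are shown because these were the most abundant or most sharply separated transcripts below. Each is written 5′ to 3′ on the strand of the gene, S100a8 from chr3:90668821-90669070 (plus strand), S100a9 from chr3:90695722-90695971 (minus strand) and Ngp from chr9:110419558-110419807 (plus strand), with capitals marking a match to a C/EBP or PU.1 motif on either strand.
S100a8: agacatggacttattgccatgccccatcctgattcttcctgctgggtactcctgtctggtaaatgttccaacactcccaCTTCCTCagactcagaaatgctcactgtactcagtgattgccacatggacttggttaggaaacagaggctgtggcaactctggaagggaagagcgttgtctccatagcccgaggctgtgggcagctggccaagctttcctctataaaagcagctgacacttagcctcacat
S100a9: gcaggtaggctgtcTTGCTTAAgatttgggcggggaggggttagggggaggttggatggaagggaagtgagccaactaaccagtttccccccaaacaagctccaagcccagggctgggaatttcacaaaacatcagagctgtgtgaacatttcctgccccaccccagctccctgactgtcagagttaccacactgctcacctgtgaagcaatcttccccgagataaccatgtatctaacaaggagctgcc
Ngp: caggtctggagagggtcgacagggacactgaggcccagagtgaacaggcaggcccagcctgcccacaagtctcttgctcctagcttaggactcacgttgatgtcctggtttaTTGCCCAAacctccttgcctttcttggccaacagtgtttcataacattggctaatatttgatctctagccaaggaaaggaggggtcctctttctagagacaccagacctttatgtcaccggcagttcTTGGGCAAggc
C/EBP proteins and PU.1 are transcription factors of the granulocyte lineage. The C/EBP motif TTGCNNAA, searched on both strands, matched 5 of the 8 windows (S100a9, Mmp8, Ngp, Ltf and Retnlg), and 9.56% of all 32851 mouse promoter windows of the same length. In Ngp it matched at 2 places, the nearer one ending 4 bases before the RefSeq start. RefSeq and GENCODE place some starts differently: the RefSeq start lies 93 bases inside the GENCODE gene for S100a8, 61 for Ngp and 0 for S100a9, so the end of the S100a8 and Ngp windows falls within the GENCODE genes given above. The PU.1 motif GAGGAAG matched 3 windows (S100a8, Csf3r and Mmp8) and 10.6% of all windows. The STAT motif TTCNNNGAA and the AP-1 motif TGANTCA matched 0 of the 8, against 7.02% and 6.75% of all windows. These matches describe letters only.

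Libraries summed to nearly the same total TPM, and the number of reads behind each library is unknown, so no counting interval can be given for a low value. Between 17140 and 18565 genes were above 0 TPM per library. The share of mitochondrially encoded transcripts differed between groups, at 12.5% to 22.2% of TPM in Con, 7.81% to 13.7% in AP and 2.80% to 6.26% in SAP, and its part in the results below was not tested. The hepatocyte marker Alb (albumin) had a median of 15126, 15435 and 16666 TPM in Con, AP and SAP. Con 3 stood apart, with the highest control value for 7 of the 9 neutrophil genes, and Con 9 held the highest for the other 2 (Ngp and Camp).

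The baseline was low. In controls 6 of the 9 genes were below 1 TPM in every library, as were 7 in AP and 0 in SAP. Of 72 values per group, 16 were exactly 0 in Con, 22 in AP and 0 in SAP. Of 10 genes used by every cell, 0 were listed at 0 TPM in any library. A low value from an unknown number of reads carries an unknown error. S100a8 and S100a9 together made up 71.0% to 94.0% of the summed TPM of the 9 genes in Con, 77.2% to 94.9% in AP and 88.8% to 93.5% in SAP. The sum itself was 2.52 to 28.6 TPM in Con, 3.11 to 7.57 in AP and 127 to 359.7 in SAP.

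All 9 genes were higher in SAP than in controls by limma on log2(TPM + 1) with Benjamini-Hochberg adjusted p under 0.05, fitted over the 26977 genes above 0 TPM in at least 1 library. In that fit 24.9% of all genes were called higher. The median change of the 9 was 1.06 on the log2 scale (range 0.64 to 4.57), against 0.0033 over all genes. In 6 of the 9, every SAP liver was above every control. This was true of 11.2% of all genes, and of 23.2% of the 10555 genes that averaged 1 TPM or more. The change depends on the pseudocount of 1 TPM, which understates the change of genes below about 1 TPM. Only S100a8, S100a9, Ngp and Retnlg averaged 1 TPM or more over the 24 libraries and so entered the fit over 10555 genes. The statistics of S100a8 and S100a9 are taken from it. In that fit 44.2% of genes were called higher in SAP. Ngp and Retnlg entered it only through their SAP values, so their statistics are taken from the fit over 26977 genes. In the fit over 10555 genes the median change of all genes was 0.21. It became -0.06 when each library was centred on its median and 0.03 after quantile normalization. Changes are therefore read relative to a shift of that size.

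S100a9 was the most abundant of the 9 transcripts, and its control values ran from 1.11 TPM through a median of 3.13 to 17.6 TPM. In SAP they ran from 92.7 through 122 to 228 TPM. The groups did not overlap, and the lowest SAP liver was 5.28 times the highest control. The change was 4.57 ± 0.31 (SE) on the log2(TPM + 1) scale (limma, adjusted p = 2.59e-12), which ranked 41 of 10555 genes by size of rise.

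S100a8, the partner of S100a9 in the calprotectin heterodimer, ran from 0.68 through 1.91 to 8.39 TPM in Con and from 23.0 through 41.5 to 108 TPM in SAP. Again no SAP liver fell within the control range, and the mean rose 15.9-fold (49.8 ± 26.4 TPM against 3.13 ± 2.64, SD, n = 8 each). The log2 change was 3.71 ± 0.30 (limma, adjusted p = 5.95e-11), ranking 93.

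Of the specific granule genes, Ngp (neutrophilic granule protein, a cystatin-related protein of the granules) went from near absence to clear detection. It was listed at 0 in 5 of 8 controls, with a highest value of 0.18 TPM, and ran from 2.89 through 5.91 to 10.1 TPM in SAP. Its lowest SAP value was 16.1 times its highest control value, the widest gap among the 9 genes. The log2 change was 2.73 ± 0.18 (limma over 26977 genes, adjusted p = 9.95e-12).

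Ltf (lactoferrin, the iron-binding protein of specific granules) stayed low in every group. It ran from 0 through 0.0050 to 0.26 TPM in Con and from 0.26 through 0.48 to 1.88 TPM in SAP. The ranges met at 0.26 TPM, with 7 of 8 SAP livers above every control, and the change was 0.64 ± 0.12 (limma over 26977 genes, adjusted p = 8.77e-05).

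Camp (cathelicidin, the precursor of an antimicrobial peptide) overlapped more. Controls ran from 0 through 0.17 to 0.69 TPM and SAP livers from 0.45 through 0.79 to 1.95 TPM, so 6 of 8 SAP livers were above every control. Con 9 alone set the upper control value. The change was 0.70 ± 0.13 (limma over 26977 genes, adjusted p = 7.04e-05).

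Mmp8 (neutrophil collagenase) ran from 0 through 0.070 to 0.14 TPM in Con and from 0.39 through 0.77 to 1.54 TPM in SAP, with no overlap. The change was 0.74 ± 0.09 (limma over 26977 genes, adjusted p = 2.18e-07). Mmp9 (gelatinase B, stored in tertiary granules and also made by macrophages) ran from 0 through 0.030 to 0.36 TPM in Con and from 0.69 through 1.42 to 1.96 TPM in SAP. These groups did not overlap either, and the change was 1.06 ± 0.09 (limma over 26977 genes, adjusted p = 1.09e-09).

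Retnlg (resistin-like gamma, a secreted protein made by mature mouse neutrophils and used to mark them) ran from 0 through 0.20 to 0.41 TPM in Con and from 3.11 through 5.23 to 9.53 TPM in SAP. The lowest SAP liver was 7.59 times the highest control, and the mean rose 32.2-fold. The log2 change was 2.44 ± 0.16 (limma over 26977 genes, adjusted p = 1.21e-11).

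Csf3r, the receptor for granulocyte colony-stimulating factor (G-CSF) and the one surface receptor in the set, moved least in fold terms. It ran from 0.18 through 0.33 to 1.16 TPM in Con and from 0.75 through 1.22 to 1.94 TPM in SAP. Because of Con 3, at 1.16 TPM, only 4 of 8 SAP livers were above every control. The next highest control had 0.53 TPM, below every SAP liver. The mean rose 2.99-fold, and the log2 change was 0.67 ± 0.12 (limma over 26977 genes, adjusted p = 9.20e-05).

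**Figure D1:**
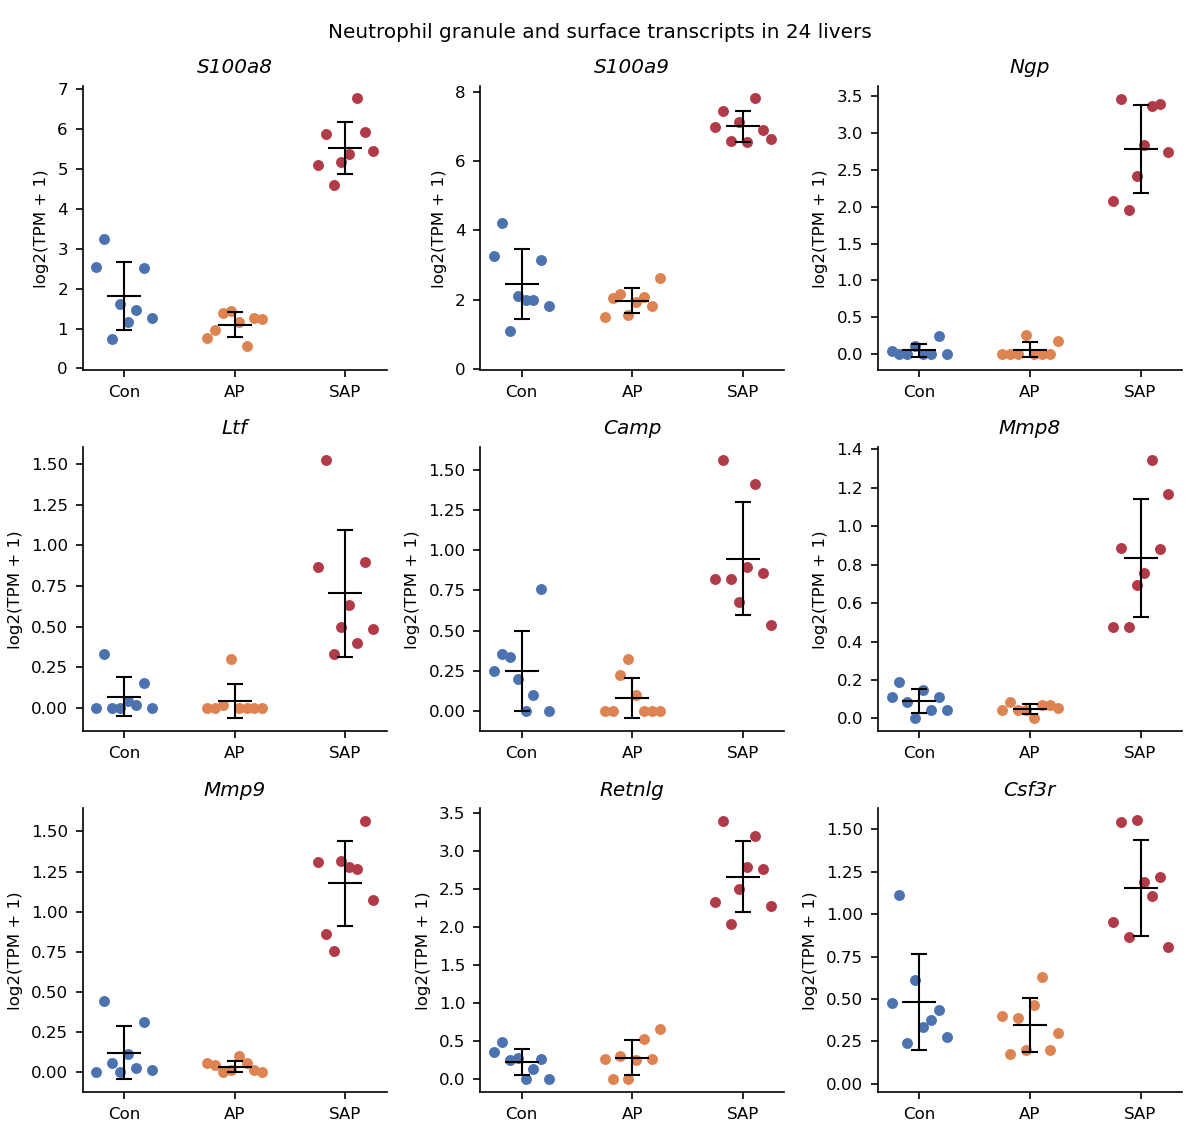
Each panel plots log2(TPM + 1) of one gene in the 24 livers by group (Con, AP, SAP; 8 points each, with the group mean and SD). The SAP points of S100a8, S100a9, Ngp, Mmp8, Mmp9 and Retnlg lie above all control points, those of Ltf, Camp and Csf3r overlap controls, and the AP points lie within or near the control range.

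Acute pancreatitis without the severe label gave no such rise. Against controls 0 of the 9 genes were called higher and 0 lower in either fit, where 0.823% of 26977 genes (5.48% of the 10555) were called. The median change of the 9 was -0.09, against 0 over all genes. In 0 of the 9 was every AP liver above every control, which 0.256% of all genes (0.644% of the 10555) showed. The intervals leave room for changes. The 95% interval was -0.36 to 0.37 for Ngp, -0.27 to 0.39 for Retnlg and -1.13 to 0.16 for S100a9, all from limma on log2(TPM + 1). Ngp and Retnlg were below 1 TPM in every control, so on this scale a narrow interval still holds large fold changes. With a pseudocount of 0.01 TPM the change of Ngp was -0.15 ± 0.78 (SE).

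S100a8 was the one of the 9 with an unadjusted p under 0.05 in this comparison. It ran from 0.48 through 1.29 to 1.71 TPM in AP, inside the lower control range except for 1 liver at 0.48 TPM. The change was -0.72 (95% interval -1.34 to -0.10), and it did not pass (limma, adjusted p = 0.164). Without Con 3 and Con 9 the difference was -0.37 (limma, adjusted p = 0.455). S100a9 in AP ran from 1.81 through 2.98 to 5.22 TPM, close to the control median of 3.13 TPM but without the high values of Con 1, Con 3 and Con 9.

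The remaining AP values were near the floor. Ngp was listed at 0 in 6 of 8 AP livers and Ltf in 6, and Camp was listed at 0 in 5. The highest AP value was 0.20 TPM for Ngp, 0.23 for Ltf, 0.25 for Camp, 0.060 for Mmp8 and 0.070 for Mmp9. Retnlg reached 0.59 TPM and Csf3r 0.55 TPM. AP 15 held the highest AP value for 4 of the 9 genes (S100a8, Ngp, Ltf and Camp).

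Set against AP directly, all 9 genes were higher in SAP (limma, adjusted p from 9.81e-12 for S100a9 to 5.65e-05 for Ltf, fitted over 26977 genes), in a comparison where 23.7% of all genes were called higher. Every SAP liver was above every AP liver for all 9, against 11.1% of all genes (22% of the 10555). The 9 include Ltf, Camp and Csf3r, which overlapped in the comparison with controls. The closest approach was for Ltf, where the lowest SAP liver had 1.13 times the highest AP value. The largest separation was for S100a9, at 17.8 times, followed by Ngp (14.5 times) and S100a8 (13.5 times). The median change of the 9 was 1.14, against 0.0036 over all genes. This comparison and that with controls share the SAP livers, so they are not independent of each other.

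Within SAP the genes varied between livers by different amounts. S100a8 spanned 23.0 to 108 TPM and S100a9 spanned 92.7 to 228 TPM, whereas Ltf spanned 0.26 to 1.88 TPM. SAP 22 held the highest value for 4 genes (Ngp, Ltf, Camp and Retnlg), of which 3 encode granule proteins, and SAP 27 held it for 3 (S100a8, S100a9 and Mmp8). SAP 24 was lowest, ties counted, for 6 of the 9. SAP 27 shows that the genes did not rank livers alike: it had 108 TPM of S100a8 but 0.32 TPM of Ltf, lower than all but 1 other SAP liver.

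**Figure D2:**
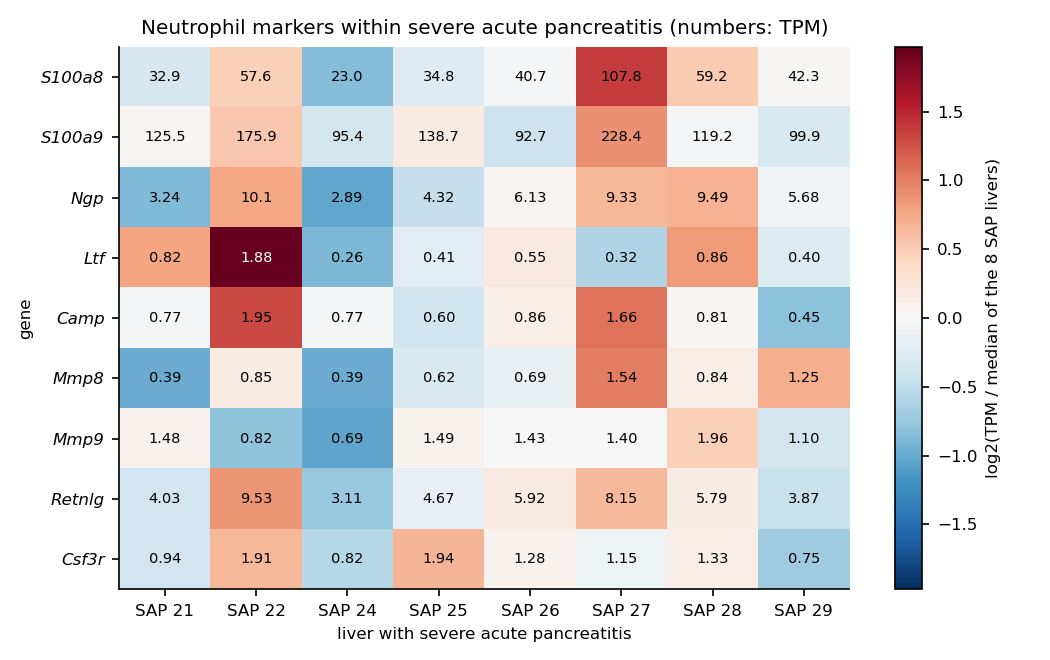
Columns are the 8 SAP livers and rows the 9 genes. The number in each cell is TPM and its colour the log2 ratio to the median of the 8 livers. SAP 22 is high for Ngp, Ltf, Camp and Retnlg, SAP 27 is high for S100a8, S100a9 and Mmp8, and SAP 24 is low for most genes.

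Relations with S100a8 were computed within each group wherever both genes were above 0 TPM in at least 6 of 8 livers, which gave 19 relations, with exact permutation p-values (two-sided, Benjamini-Hochberg over the 19). Among the 8 SAP livers, Ngp followed S100a8 (Pearson r = 0.876, exact p = 0.00144, adjusted p = 0.0137; Spearman rho = 0.881, exact p = 0.00724, adjusted p = 0.0344). Without SAP 24 and SAP 27, the livers farthest from the median of S100a8, r was 0.980. Mmp8 gave r = 0.843 (exact permutation p = 0.00719, adjusted p = 0.0429) and rho = 0.898 (exact p = 0.00516, adjusted p = 0.0327), but r fell to 0.542 without those 2 livers, so the relation rests partly on them. Retnlg gave r = 0.819 (exact permutation p = 0.0109, adjusted p = 0.0429) and rho = 0.714 (exact p = 0.0576, adjusted p = 0.182), with r = 0.723 without them.

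The other granule and surface genes showed no relation with S100a8 within SAP that passed. The r was 0.653 for Camp (exact permutation p = 0.0826, adjusted p = 0.174; rho = 0.539, exact p = 0.177) and 0.349 for Mmp9 (exact permutation p = 0.397, adjusted p = 0.539; rho = 0.167, exact p = 0.703). It was 0.259 for Csf3r (exact permutation p = 0.545, adjusted p = 0.609; rho = 0.262, exact p = 0.536) and 0.204 for Ltf (exact permutation p = 0.598, adjusted p = 0.631; rho = 0.262, exact p = 0.536). Without SAP 24 and SAP 27, r was 0.579 for Camp, -0.13 for Mmp9, 0.275 for Csf3r and 0.630 for Ltf.

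Among controls, 2 of 6 relations passed. S100a9 followed S100a8 closely (r = 0.989, exact permutation p = 0.000223, adjusted p = 0.00424; rho = 0.929, exact p = 0.00223, adjusted p = 0.0327), and r was 0.972 without Con 1 and Con 3. Csf3r gave r = 0.798 in controls (exact permutation p = 0.0113, adjusted p = 0.0429; rho = 0.905, exact p = 0.00456, adjusted p = 0.0327), which became 0.563 without those 2 livers. Among AP livers 0 of 5 relations passed, and that of S100a9 with S100a8 had r = 0.078 (exact permutation p = 0.850; rho = 0, exact p = 1) and r = -0.26 without AP 11 and AP 17. The AP values of S100a8 spanned only 0.48 to 1.71 TPM, so little variation was there to follow.

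The ratio of S100a9 to S100a8, chosen after the values were seen, is given as a description, with no test. It was 1.60 to 2.38 in Con (median 1.73), 1.12 to 6.71 in AP (median 2.43) and 2.01 to 4.14 in SAP (median 2.71). The mean log2 ratio was 0.66 higher in SAP than in controls, 0.53 higher in AP than in controls and 0.13 higher in SAP than in AP. The AP difference moved with single livers: it was 0.71 without AP 15, whose ratio was 1.12, and 0.34 without AP 17, whose ratio was 6.71.

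The SAP ratios fell into separate sets by title number. SAP 21, 22, 24 and 25 had ratios of 3.81, 3.05, 4.14 and 3.98. SAP 26, 27, 28 and 29 had 2.28, 2.12, 2.01 and 2.36. The sets did not overlap, and since the split was noticed in the values it was not tested. The split was not limited to this ratio. Genes above 0 TPM numbered 17140 to 17385 in the lower-numbered set and 18180 to 18565 in the other. The median change of all tested genes against controls was -0.015 with the lower-numbered set alone and 0.37 with the other alone. The part of this wider difference in the ratio was not tested. Over all 8 SAP livers, which mix these sets, the relation of S100a9 with S100a8 did not pass. It had r = 0.771 (exact permutation p = 0.0239, adjusted p = 0.0756; rho = 0.500, exact p = 0.216), and r = 0.292 without SAP 24 and SAP 27. The labels do not say whether the numbers mark a batch, cage or day. The log2 difference of the ratio from controls was 0.27 with SAP 26 to 29 alone and 1.04 with SAP 21, 22, 24 and 25 alone. S100a8 itself ran from 23.0 to 57.6 TPM in the lower-numbered set and from 40.7 to 108 TPM in the other, S100a9 from 95.4 to 176 and from 92.7 to 228, and Mmp8 from 0.39 to 0.85 and from 0.69 to 1.54.

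Because of that split, the relations of S100a8 within SAP were computed again from deviations from the mean of each set, permuted within sets, for the 7 genes other than S100a9 (adjusted over 7). Ngp gave r = 0.822 (exact permutation p = 0.00694, adjusted p = 0.0486) and Retnlg r = 0.863 (exact permutation p = 0.0139, adjusted p = 0.0486). Mmp8 gave r = 0.760 (exact permutation p = 0.0451, adjusted p = 0.0790) and so did not pass within sets, nor did Camp at r = 0.842 (exact permutation p = 0.0417, adjusted p = 0.0790). Mmp9, Ltf and Csf3r gave r = 0.115, 0.454 and 0.527 (exact permutation p = 0.792, 0.271 and 0.203).

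**Figure D3:**
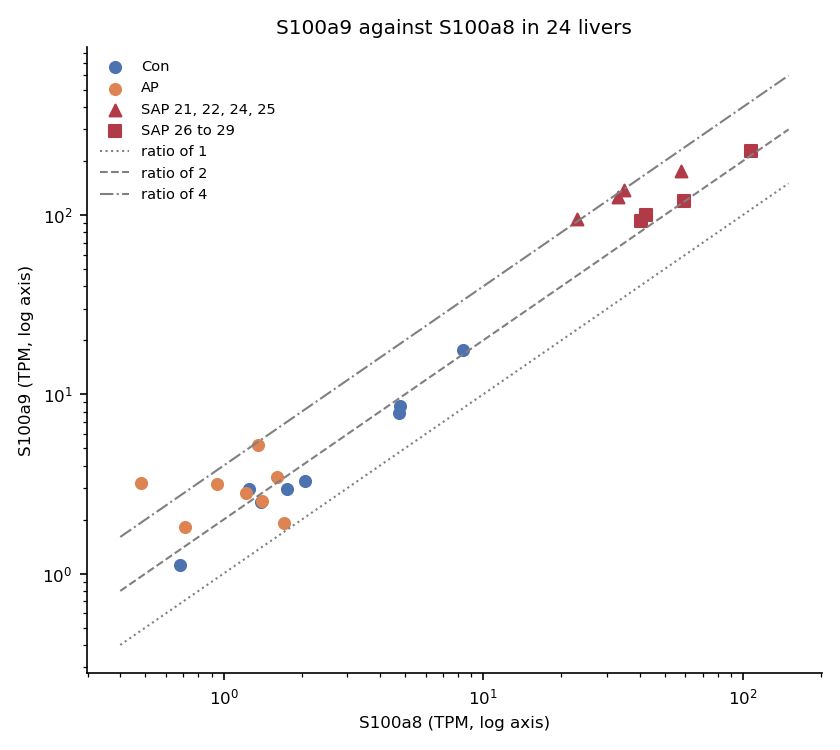
S100a9 is plotted against S100a8 in TPM on log axes, 1 point a liver, with lines at ratios of 1, 2 and 4. SAP 21, 22, 24 and 25 (triangles) lie between ratios of 3.05 and 4.14, SAP 26 to 29 (squares) near 2, and the controls between 1.60 and 2.38.

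The genes whose variation within groups was most like that of S100a8 were found by Pearson's r between deviations from the group means of log2(TPM + 1) over the 24 libraries, among the 10555 genes of the filtered fit, as a description. They were Igsf6 (r = 0.806), Fgl1 (0.781), Marco (0.778), Art2a-ps (0.777), Orm1 (0.741) and Ncf4 (0.721). Among the neutrophil genes themselves the values were 0.835 for S100a9, 0.565 for Ngp and 0.559 for Retnlg. Ngp and Retnlg were below 1 TPM in every Con and AP liver, so little variation was there to follow S100a8. Within SAP alone their r with S100a8 was 0.876 and 0.819. Igsf6 is a surface protein of the immunoglobulin family found on myeloid cells, Marco a macrophage scavenger receptor, Ncf4 a subunit of the phagocyte oxidase, and Fgl1 and Orm1 are proteins secreted by hepatocytes, Orm1 being an acute-phase protein. For all 6, Con 3 was the highest control and SAP 27 the highest SAP liver, and how much of the likeness rests on those 2 libraries was not tested. Marco ran from 0.20 through 0.65 to 22.2 TPM in controls and from 5.05 through 15.4 to 30.8 TPM in SAP.

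Of the 4 primary granule genes, which are made earliest in the precursor cell, 1 rose (Mpo) and 1 fell (Prtn3) in SAP (limma over 26977 genes), near the 24.9% of all genes called higher and 16.3% called lower. Prtn3 (proteinase 3) was lower in SAP, from 2.45 through 6.64 to 22.3 TPM in controls and from 3.60 through 9.48 to 28.2 TPM in AP to between 0 and 0.69 TPM in SAP (median 0.27). Every SAP liver was below every control, which was true of 6.88% of the 26977 genes and 14.6% of the 10555 genes. The change was -2.62 ± 0.44 against Con (limma over 26977 genes, adjusted p = 3.09e-05) and -3.07 ± 0.44 against AP (limma over 26977 genes, adjusted p = 4.05e-06). Mpo (myeloperoxidase) was 0.24 higher in SAP (limma over 26977 genes, adjusted p = 0.0304), at no more than 0.46 TPM, and 12 of the alternatives lost the call, with changes from 0.21 to 0.26. Elane (neutrophil elastase) had a median of 0.16 TPM in controls and 0 in SAP and did not pass (change -0.18, limma adjusted p = 0.107), though without SAP 26 it did (-0.23, limma adjusted p = 0.0383). Ctsg (cathepsin G) was at or below 0.18 TPM in every liver. By annotation Prtn3 overlaps Plppr3 and Mpo an antisense gene on the opposite strand, and no label says whether reads were counted by strand.

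Of 12 other granule and secreted genes, 8 rose and 0 fell in SAP (limma over 26977 genes), and of 25 other surface and cytosol genes 20 rose and 0 fell, beside 24.9% of all genes called higher and 16.3% lower. Lcn2 (lipocalin 2, which binds bacterial siderophores and is also made in quantity by hepatocytes) ran from 60.01 through 273 to 2873 TPM in Con and from 12273 through 14085 to 16972 TPM in SAP, a change of 5.53 ± 0.51 (limma, adjusted p = 5.28e-10). Slpi (secretory leukocyte protease inhibitor) changed by 5.51 ± 0.32, from a median of 1.30 to 117 TPM (limma, adjusted p = 9.11e-14). Wfdc21 rose from a median of 278 to 2269 TPM (limma, adjusted p = 3.77e-12) and Pglyrp1 (peptidoglycan recognition protein 1) from 0.44 to 3.64 TPM (limma over 26977 genes, adjusted p = 6.08e-06). Abundant members of these lists that did not pass were Lyz2 (lysozyme, also abundant in macrophages), with a change of 0.04 (limma, adjusted p = 0.868), Cyba, with -0.12 (limma, adjusted p = 0.692), and Ncf4, with 0.0017 (limma, adjusted p = 0.995), the last 2 encoding phagocyte oxidase subunits. Their direction turned under some alternatives.

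Lcn2 and Wfdc21 were thus far more abundant in TPM than any of the 9 genes, in controls as well as in SAP. Il1r2 (the decoy interleukin-1 receptor) and Ly6g (the antigen of the antibodies commonly used to stain mouse neutrophils) fall outside the naming rule and were picked for their use as neutrophil markers after values were seen. Il1r2 ran from 0 through 0.020 to 0.14 TPM in Con and from 2.39 through 3.98 to 6.16 TPM in SAP, a change of 2.20 given with no test. Ly6g ran from 0 through 0.075 to 0.22 TPM and from 0.27 through 0.72 to 1.32 TPM, a change of 0.61. In AP 0 genes of these lists rose or fell (limma over 26977 genes, where only 0.823% of all genes were called).

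**Figure D4:**
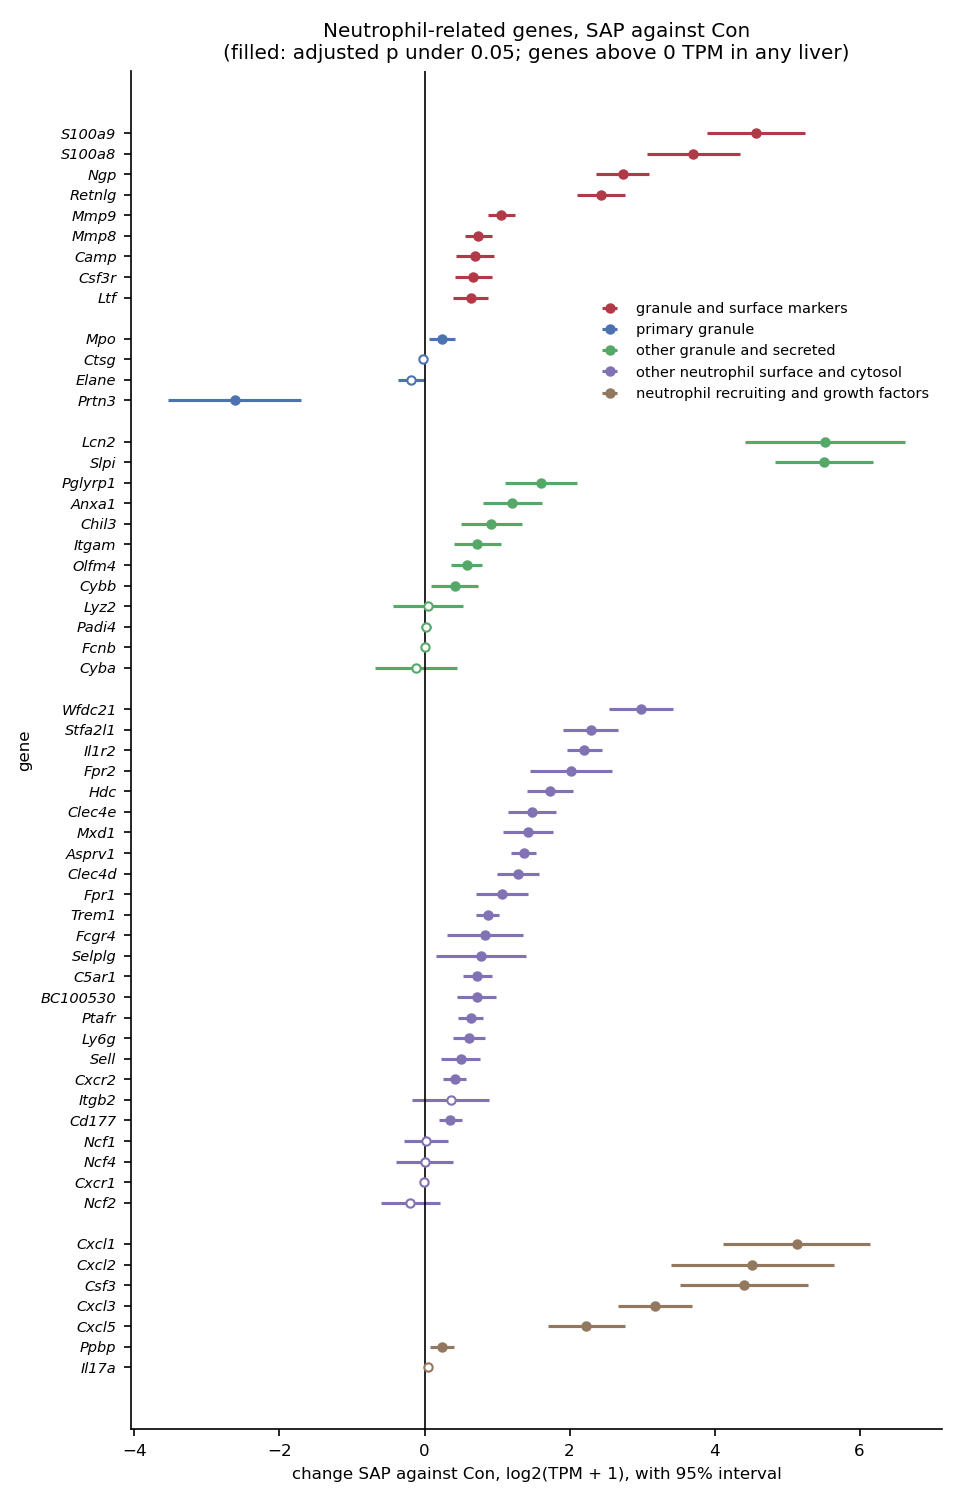
Changes of SAP against Con on the log2(TPM + 1) scale with 95% intervals, from limma over genes above 0 TPM in any liver, by list. Filled points have an adjusted p under 0.05. All 9 granule and surface markers lie above 0, Prtn3 lies at -2.62, and Lcn2, Slpi and Cxcl1 lie above 5.

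Genes for neutrophil-attracting chemokines and growth factors rose as well: 6 of 7 found in the table rose in SAP and 0 fell (limma over 26977 genes, where 24.9% of all genes were called higher). In AP 0 of these genes moved, where only 0.823% of all genes were called. Cxcl1, a ligand of the neutrophil receptor CXCR2, ran from 4.74 through 18.2 to 26.0 TPM in Con and from 280.4 through 586 to 798 TPM in SAP, a change of 5.13 ± 0.47 (limma, adjusted p = 4.66e-10). Csf3, which encodes G-CSF, the ligand of Csf3r, was listed at 0 to 0.030 TPM in Con and at 0 to 0.14 TPM in AP. In SAP it ran from 4.10 through 22.3 to 93.3 TPM, a change of 4.41 ± 0.43 (limma over 26977 genes, adjusted p = 8.11e-09). The ligand thus went from near 0 in controls to a median of 22.3 TPM, while its receptor changed from a median of 0.33 to 1.22 TPM.

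Of 6 genes for granulocyte precursor transcription factors, 3 rose and 1 fell in SAP (limma over 26977 genes, where 24.9% of all genes were called higher and 16.3% lower). Cebpd changed by 3.24 ± 0.22 (limma, adjusted p = 1.49e-12), from a median of 0.99 to 21.3 TPM, and Cebpb by 1.40 ± 0.16 (limma, adjusted p = 2.95e-08), from 56.8 to 138 TPM. Both are also induced in hepatocytes by inflammatory cytokines. The others called were Gfi1, higher but at no more than 0.030 TPM in any liver, and Cebpa, lower.

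Markers of other cell types were measured beside these. The summed level of 10 monocyte genes was 54.6 to 136 TPM in Con, 87.4 to 162 in AP and 333 to 621 in SAP, with 4 called higher (Fn1, Nr4a1, Vcan and Ace) and 1 lower (Cx3cr1) in SAP against Con. For this and the lists that follow, counts and p-values are from limma over 26977 genes, where 24.9% of all genes were called higher and 16.3% lower. The sum was almost all Fn1 (fibronectin, which hepatocytes also make), at a median of 69.5 TPM in Con and 441 in SAP, while Ly6c2, Ccr2 and F13a1 were not called. In the fit over 10555 genes, F13a1 was called lower (-0.97, limma, adjusted p = 0.0401), as was Treml4 (-0.52, limma, adjusted p = 0.0332). There 44.2% of all genes were called higher and 29.8% lower. For 12 Kupffer cell and macrophage genes the sum was 119.8 to 459 TPM in Con, 83.1 to 294 in AP and 105 to 226 in SAP, with 1 higher (Marco) and 6 lower. In the fit over 10555 genes, which held 11 of them, 1 was higher and 8 were lower. Clec4f, the C-type lectin that marks Kupffer cells, changed by -0.98 (limma, adjusted p = 0.00563), and Cd5l by -1.87 (limma, adjusted p = 0.000139). Without SAP 26 to 29 the change of Clec4f was -0.55 and did not pass in the fit over genes averaging 1 TPM or more (limma, adjusted p = 0.111).

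Lymphocyte and eosinophil genes were at low levels throughout. Of 10 T and NK cell genes 0 rose and 1 fell (sum 1.24 to 10.4 TPM in Con, 1.56 to 4.43 in SAP), and of 7 B and plasma cell genes 0 rose and 1 fell (0.96 to 1.76 TPM in Con, 0.23 to 1.00 in SAP). For eosinophil, basophil and mast cell genes the sum was 0.50 to 8.14 TPM in Con and 0.48 to 2.58 in SAP, and the eosinophil genes Epx and Ear1 were listed at 0 in every library. The 6 platelet genes summed to 3.16 to 4.44 TPM in Con and 13.1 to 31.4 in SAP, with Pf4 and Treml1 higher and Itga2b lower. That rise was Pf4 (platelet factor 4), whose median went from 2.04 to 18.0 TPM. The 6 red cell genes summed to 176 to 626 TPM in Con and 79.2 to 277 TPM in SAP (0 rose, 1 fell). Exocrine pancreas genes summed to 17.1 to 41.6 TPM in Con and 7.96 to 14.8 in SAP, which was nearly all Cela1 (17.1 to 41.1 TPM and 7.89 to 14.7 TPM), and Prss1 was at 0 in every library. The part of these cell types in the changes of the 9 genes was not tested.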

How the data were processed

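RNA from livers frozen in liquid nitrogen had been extracted with Trizol and made into Illumina libraries, per the labels. Values are TPM as the authors deposited them, with 2 decimals. No header names the unit: libraries sum to nearly the same total, and among genes at 0 in at least 12 libraries the median lowest value above 0 was 0.13 for 3891 genes with transcripts under 1000 bases and 0.01 for 1075 with one over 4000 bases, as values divided by length give. The only tool in the submitters' processing notes is edgeR, with no version. For aligner, build, annotation and strand setting, no label or header gives a name. No read counts were used, so depth and counting error are unknown. TPM are shares, so that a gain by abundant transcripts takes from all others.

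The groups and numbers come from the titles (8 libraries each), and 0 columns were left unmapped. TPM were taken as log2(TPM + 1) and fitted by group over all 24 libraries with limma 3.58.1 in R 4.3.3 (intensity trend, 21 residual degrees of freedom). The 10555 genes that averaged 1 TPM or more (44981 did not) were called at a Benjamini-Hochberg adjusted p under 0.05. Ltf, Camp, Mmp8, Mmp9 and Csf3r did not reach that mean. Their statistics, with those of Ngp, Retnlg, Prtn3, Csf3, Pglyrp1 and the counts over lists, come from the same fit over all 26977 genes above 0 TPM in any library. The fit was tested on simulated data. Exact permutation tests used SciPy 1.17.1.

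The 9 genes and all lists were chosen with earlier results of these data known. Named besides the 9 are genes from up to 6 per list with the highest mean TPM, and the 6 most like S100a8. Ly6g, Il1r2 and the ratio of S100a9 to S100a8 were chosen after values were seen, as was the split of SAP libraries by number. Marco is named by the rule of likeness, and other genes outside the rule because a short count or a list's lack of signal refers to them. Promoter sequences are from RefSeq (GRCm38.p6). Alternatives covered scaling, low-value filter, pseudocount, limma settings and left-out libraries.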

Additional observations from a re-analysis of the deposited data

Results flagged for a closer look

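A highest or lowest library stood apart from the rest of its group by Dixon's test (the gap to the next library over the range of the group, against the 95% critical value) in 8 of 27 groups of the 9 genes and in 18 of 81 groups of the 27 other genes named. Chance alone gives about 1 in 20 only if values are normally distributed, which was not checked for these TPM. Groups in which most livers are at or near 0 TPM meet this test easily.

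Among the 9 genes, S100a8 in SAP 27 was 107.79 TPM, with the next liver at 59.2. S100a9 in Con 3 was 17.57 TPM, with the next control at 8.56. Ltf was 0.26 TPM in Con 3, 0.23 TPM in AP 15 and 1.88 TPM in SAP 22. Csf3r was 1.16 TPM in Con 3. Con 9 held the control values of 0.18 TPM for Ngp and 0.69 TPM for Camp.

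Con 3 also stood apart for Mpo (0.43 TPM), Lcn2 (2872.7 TPM), Lyz2 (28.06 TPM), Cyba (46.55 TPM), Slpi (9.25 TPM), Csf3 (0.03 TPM), Marco (22.24 TPM), Igsf6 (1.96 TPM), Fgl1 (1817.3 TPM) and Ncf4 (8.24 TPM). Without Con 3 and Con 9, the calls of the 9 genes in SAP against Con were the same.

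The other libraries that stood apart were AP 15 for Slpi (6.57 TPM), AP 16 for Ly6g (0.33 TPM), AP 19 for Csf3 (0.14 TPM), AP 13 for Ctsg (0.04 TPM) and Con 8 for Ctsg (0.18 TPM). In SAP they were SAP 22 for Cebpd (37.79 TPM), SAP 26 for Elane (0.3 TPM) and SAP 27 for Igsf6 (4.58 TPM).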

How the results depend on the processing

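There were 13 alternative settings and 24 fits leaving out 1 library, and results were counted as pairs of 1 gene and 1 alternative. For the 9 genes, direction and call held in 323 of 323 pairs in SAP against Con and in 323 of 323 in SAP against AP (highest adjusted p 0.00523, limma, Camp with a pseudocount of 0.01 TPM). In AP against Con 0 genes of the 9 were called in any alternative. The 4 genes called in SAP against Con and in SAP against AP became 9 with no filter. Fold sizes of low genes depend on the pseudocount: Ltf in SAP against Con was 0.64 with 1 TPM, 2.33 with 0.1 and 4.42 with 0.01, and Ngp was 2.73, 5.54 and 8.00. Signs near 0 turned in AP against Con: Ngp was -0.045 with centring, -0.15 with a pseudocount of 0.01, -0.0018 with array weights and -0.024 to 0.033 leaving out 1 library. Ltf was 0.030 without Con 3 and Con 9 and -0.066 to 0.0095 leaving out 1 library, and Mmp9 0.00018 without Con 3 and Con 9. The ratio of S100a9 to S100a8 in SAP against AP was -0.26 without SAP 21, 22, 24 and 25 and -0.050 to 0.32 leaving out 1 library. The causes were not tested.

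Genes called in AP against Con numbered 578, and 1006 with centring, 222 with no filter, 1458 with array weights, 913 without Con 3 and Con 9, 877 without SAP 26 to 29 and 179 to 840 leaving out 1 library. In SAP against Con 4661 rose and 3147 fell, against 3888 and 4300 with centring and 4264 and 3926 after quantile normalization. In AP against Con 459 rose and 119 fell, against 388 and 265 after quantile normalization and 194 and 215 rescaled without the 50 most abundant genes. Of the other named genes in SAP against Con, 802 of 840 pairs of gene and alternative kept call and direction. Ctsg was 0.0053 without SAP 21, 22, 24 and 25 and -0.028 to 0.0063 leaving out 1 library, and Elane passed at -2.41 with a pseudocount of 0.01. With centring, quantile normalization, without SAP 26 to 29 and leaving out 1 library, Lyz2 was -0.23, -0.25, -0.038 and -0.086 to 0.27, and Ncf4 -0.27, -0.24, -0.25 and -0.089 to 0.14, with -0.020 under array weights. Cyba was 0.24 without Con 3 and Con 9, 0.12 without SAP 21, 22, 24 and 25 and -0.24 to 0.10 leaving out 1 library. No paired analysis was possible because the groups share no replicate numbers.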
